A study of Mus musculus with 8 samples.

Results

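Translating ribosome affinity purification (TRAP) libraries from wild-type mouse lung at embryonic day 16 (E16) were placed against the TRAP libraries of the stages on either side, E14 and E17. TRAP recovers mRNA on ribosomes of a labelled cell type through a tagged ribosomal protein. Of the 8 libraries in the series, 4 were compared: 2 wild-type replicates at E16, 1 wild-type library at E14 and 1 at E17. A gene record was kept when its mean over these 4 libraries was at least 1 FPKM (fragments per kilobase of transcript, scaled to the size of the library) and its locus spanned at least 200 bases. That left 11817 of 24487 records, carrying 11776 gene symbols. Another 27 records reached the mean and were dropped for their span. Psd3, with a mean of 1.00, was the record just inside the threshold, and 1500004A13Rik, with a mean of 0.9996, the one just outside.

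The strain was C57BL/6, and tamoxifen started the labelling of ribosomes in every group, controls included. Ribosomes were pulled down through L10. Both E14 and E17 libraries and both E16 replicates carry the genotype wildtype, and 2 further E16 TRAP libraries carry the genotype Sox9-mutant. Those mutant libraries entered the fit to estimate the spread between replicates, and their levels are given where they help to read a value. The whole lung libraries of E14 and E17, 1 each, serve as a reference for RNA of other lung cells. The driver of the labelling, the number of embryos per library and the part of the lung that was taken are not given in the sources used here. Titles of E16 libraries carry E13 too, and no label explains it. These libraries form a set of their own by title, so stage and library set cannot be told apart in any comparison below.

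Sox9 marks the growing tips of the lung epithelium. Tip cells divide, extend the airway tree and leave descendants behind, first of airway and then of alveolar type. Around the stages compared here the tips turn to alveolar fates: flat type 1 cells for gas exchange, and type 2 cells that make surfactant, the lipid and protein film that keeps air spaces open.

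Sox9 (chromosome 11, 112782210 to 112787757, mm10) stood at 63.9 FPKM at E14, at 35.9 and 36.4 in the E16 replicates and at 68.5 at E17. Both E16 values lay below both flanking values, with log2 differences of log2(FPKM + 1) of -0.81 to E14 (SE 0.09, limma adjusted p = 0.000994) and -0.90 to E17 (SE 0.09, limma adjusted p = 0.00117). Sox9 itself therefore did not follow a course from E14 to E17. The whole lung held 15.0 and 16.7 FPKM, less than any wild-type TRAP library.

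Markers of the labelled cells were present at all 3 stages. All 24 pan-epithelial genes of the list used here passed the filter, Epcam among them at 366, then 308 and 290.4, then 299.6 FPKM, against 84.1 and 113 in whole lung. Endothelial and mesenchymal markers were lower than in whole lung but not at 0. The 18 endothelial genes summed to 102 FPKM at E14, 89.0 and 115 at E16 and 180.1 at E17, against 505 and 931 in whole lung, with none listed at 0 in a TRAP library. The 24 mesenchymal genes summed to between 645 and 752 FPKM in the 4 libraries, against 2106 and 3549.8 in whole lung, also with none listed at 0. Erythroid genes were lower than in whole lung as well, where they summed to 23212 and 19471 FPKM. Their sums were still large at the flanking stages, at 6297 FPKM at E14 and 6085 at E17. In each of the 4 libraries, 1 or 2 genes of the leukocyte list and 1 or 2 of the erythroid list were at 0, not always the same ones. In bulk libraries such as these, fewer cells of a type and less RNA per cell cannot be told apart.

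The fragments behind a library, inferred from the deposited confidence bounds, numbered 9783768 at E14, 17451949 and 19102589 at E16 and 15504704 at E17, so that E14 was the shallowest. The E16 replicates correlated at a Pearson r of 0.996 across records, against 0.966 and 0.965 with E14, 0.972 and 0.971 with E17, and 0.959 between E14 and E17. These values are across genes, which are not independent replicates. The replicates differed 2-fold or more in 16 records (0.135%). The 4 kept genes of the Y chromosome were all split: Ddx3y, an RNA helicase, was at 3.57 FPKM in replicate 1 and 0.0177 in replicate 2, beside 3.42 at E14 and 3.49 at E17. Xist, the RNA of the inactive X chromosome, went the other way, at 0.0179 FPKM in replicate 1 and 1.03 in replicate 2, and was not kept by the filter. The E16 replicates thus differed in sex-linked RNA, while the labels do not say that replicates came from separate animals, and each flanking stage has a lone library that is assumed to vary like the E16 pairs. The p-values thus measure only the spread between these libraries.

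Each E16 replicate was given a position on the scale of log2(FPKM + 1). It was above both or below both stages when it lay more than 0.5 outside them. Otherwise, where E14 and E17 differed by at least 1 (2-fold of FPKM + 1), it was near E14 when under 1/3 of the way from E14 to E17, near E17 when over 2/3 of the way, and between in the middle. Where E14 and E17 differed by less, it was near both. A record took a position only when both replicates fell in it, and was split otherwise. The position carries no test.

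Most records moved little: 10020 (84.8%) were near both stages. E16 lay near E14 in 148 records (1.25%), between in 227 (1.92%) and near E17 in 172 (1.46%). It was above both in 415 (3.51%) and below both in 253 (2.14%), and 582 (4.93%) were split. The mutant libraries, set against the same E14 and E17 libraries, were near both in 77.7%, near E14 in 0.956%, between in 0.779%, near E17 in 2.02%, above both in 6.37% and below both in 5.46%.

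**Figure D1:**
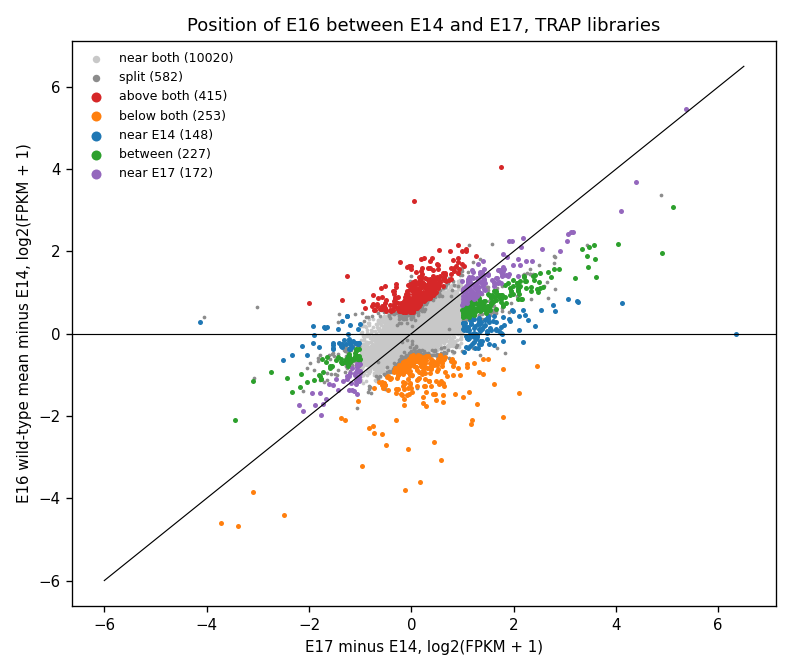
Each point is 1 of 11817 records: the x axis gives E17 minus E14 and the y axis the mean of the 2 E16 wild-type replicates minus E14, both in log2(FPKM + 1), coloured by position with the number of records in brackets. Points on the horizontal line equal E14 and points on the diagonal equal E17; the red cloud of 415 records lies above both lines and the orange cloud of 253 below both.

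Among the 551 records at least 2-fold higher at E17 than at E14, E16 had covered a median of 52.6% of the way (quartiles 31.0% and 73.3%), with 52.8% and 52.9% in the replicates taken alone. Of these, 102 were near E14 (0.863% of all records), 171 between (1.45%) and 134 near E17 (1.13%). Among the 215 records at least 2-fold lower at E17, the median was 51.3% (quartiles 27.8% and 68.0%), with 46 near E14 (0.389%), 56 between (0.474%) and 38 near E17 (0.322%). E16 therefore had no single place between the stages: genes of the same direction were near E17, midway or near E14.

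By test, 2894 records were higher at E16 than at E14 (24.5% of those tested) and 2977 lower (25.2%). Against E17, 1811 were higher (15.3%) and 2216 lower (18.8%). At 2-fold or more, 400 (3.38%) were higher and 159 (1.35%) lower than E14, and 163 (1.38%) higher and 308 (2.61%) lower than E17. The split of calls depended on the scale of each library. With every library rescaled to a common total, only 22.4% of the calls against E14 and 14.7% of those against E17 were in the higher direction, beside 49.3% and 45.0% as reported, and with every library centred on its median the share against E17 was 59.7%. The common total also shifted the median difference over all records, from -0.0145 to -0.258 for E14 and from -0.0368 to -0.245 for E17, so changes close to that size are read only in relation to it.

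Genes of type 2 cells and surfactant lay mostly near E14 or between the stages. Of 22 genes listed, 19 passed the filter. E16 was near E14 for 6 (1.25% of all records), between for 7 (1.92%) and below both for 3 (2.14%). Another 2 were split (4.93%) and 1 was near both (84.8%). By test, 12 of the 19 were higher than at E14 (24.5% of all records) and 4 lower (25.2%). Against E17, 18 were lower (18.8% of all records) and none higher. The median log2 difference was 0.74 to E14 and -1.52 to E17, against -0.01 and -0.04 over all records.

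Sftpc, which encodes surfactant protein C, was at 399.6 FPKM at E14, 3788 and 4487 at E16, and 11835 at E17. Both E16 replicates lay apart from both flanking values and stood 68.9% of the way on the log scale, with log2 differences of 3.36 to E14 (SE 0.11, limma adjusted p = 5.36e-05) and -1.52 to E17 (limma adjusted p = 0.000444). Its position was split because the replicates fell on either side of the 2/3 mark.

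Ctsh and Napsa encode proteases that process surfactant proteins. Ctsh was at 19.98 FPKM, then 96.5 and 91.2, then 344, which put E16 at 53.9% of the way. Napsa was at 1.77, then 10.4 and 9.41, then 81.7 FPKM, at 40.2% of the way. Both were higher than at E14 (limma adjusted p = 9.06e-05 and 0.00402) and lower than at E17 (limma adjusted p = 0.00021 and 0.00161). Between positions were also held by Cebpa, a transcription factor of type 2 maturation (29.7, then 57.8 and 50.5, then 102 FPKM), by the membrane mucin Muc1 (8.86, then 41.2 and 38.8, then 99.1), and by Lpcat1, an enzyme that makes surfactant lipid (42.4, then 67.3 and 61.9, then 96.5). Lgi3 and Dram1 were the remaining between genes of the list.

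Slc34a2, Lamp3 and Abca3 were near E14 by position and still higher than E14 by test. For Abca3 the difference to E14 was close in size to the shift of the median under a common total. Slc34a2, the phosphate transporter of type 2 cells, was at 0.677 FPKM at E14, 1.95 and 1.64 at E16, and 28.2 at E17, so that E17 was 15.7-fold above the E16 mean. Lamp3, a protein of the lamellar bodies in which surfactant is stored, was at 3.07, then 6.53 and 5.64, then 37.2 FPKM. Abca3, which pumps lipid into those bodies, was at 13.4, then 18.1 and 15.7, then 53.9 FPKM. For each of the 3 the E16 replicates lay close to E14 and far from E17, with log2 differences to E17 of -3.39, -2.43 and -1.62 (limma adjusted p = 0.000248, 0.000448 and 0.000248) and smaller ones to E14 of 0.74, 0.80 and 0.31 (limma adjusted p = 0.0237, 0.0111 and 0.0357).

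Sftpb, the surfactant protein needed for the film to spread, was at 83.7 FPKM, then 168 and 137, then 709, at 27.6% of the way. Il33 and Cd74 did not pass the test against E14 (limma adjusted p = 0.62 and 0.458). Sftpa1 stood at 9.77 FPKM at E14, 7.13 and 6.54 at E16 and 37.2 at E17, and was lower than E14 (log2 -0.46, limma adjusted p = 0.0338).

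The 3 members below both stages were Fasn, the enzyme of fatty acid synthesis (73.0, then 31.8 and 29.1, then 50.9 FPKM), lysozyme Lyz2 (4.34, then 1.53 and 1.45, then 4.14) and Sftpd, a surfactant protein of innate defence (3.88, then 0.719 and 1.07, then 2.55). Lyz2 is also made by macrophages. The 14 leukocyte genes listed, of which 4 passed the filter and none was below both, summed to 10.1 FPKM at E14, 5.32 and 4.92 at E16 and 16.5 at E17, with 1 or 2 of them listed at 0 in each of these libraries. The part of such cells in the Lyz2 value was not tested.

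**Figure D2:**
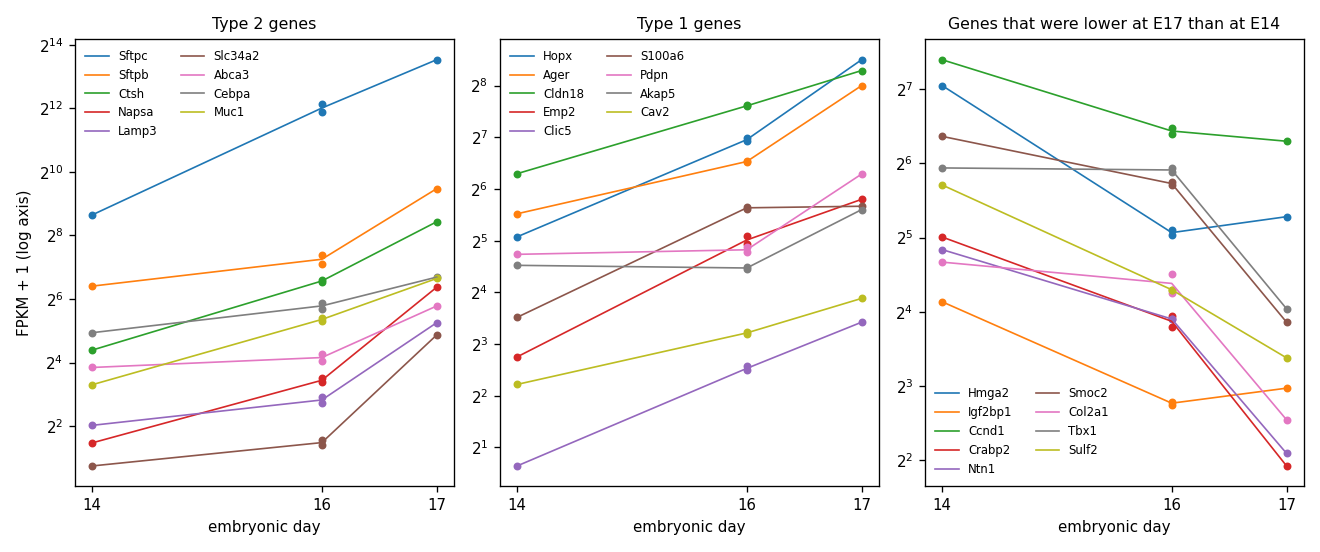
FPKM + 1 on a log axis against embryonic day for genes of type 2 cells, genes of type 1 cells and genes that were lower at E17 than at E14; points are libraries, with 2 wild-type replicates at E16, and lines join E14, the E16 mean of log values and E17. Slc34a2, Lamp3 and Abca3 lie close to E14 at E16, whereas S100a6, Hmga2 and Igf2bp1 lie close to E17.

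Genes of type 1 cells were spread over several positions, none of them outside both stages. Of 20 listed, 19 passed the filter. E16 was near E14 for 5 (1.25% of all records), between for 4 (1.92%) and near E17 for 2 (1.46%). Another 5 were near both (84.8%) and 3 split (4.93%). By test, 12 were higher than at E14 (24.5% of all records) and none lower, and 13 were lower than at E17 (18.8% of all records) and none higher. The medians were 0.57 to E14 and -0.89 to E17. With libraries rescaled to a common total, 4 of them were called lower than E14 and 10 higher.

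S100a6, a calcium-binding protein, was near its E17 level: 10.4 FPKM at E14, 49.3 and 48.1 at E16, and 49.8 at E17. The difference was 2.12 to E14 (SE 0.06, limma adjusted p = 4.38e-05) and -0.03 to E17 (limma adjusted p = 0.723). Emp2, a membrane protein abundant in type 1 cells, was at 5.73, then 29.7 and 33.0, then 54.7 FPKM, at 74.2% of the way. It was still lower than at E17 (log2 -0.79, limma adjusted p = 0.00124).

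Hopx and Ager, classical type 1 markers, lay between. Hopx was at 32.7 FPKM, then 121 and 125, then 362, and Ager at 44.9, then 91.8 and 91.2, then 255, or 54.9% and 40.8% of the way. The junction protein Cldn18 (77.6, then 193 and 196, then 312 FPKM) and the caveolar protein Cav2 (3.65, then 8.19 and 8.38, then 13.8) were between as well. Each of the 4 passed against both stages, and no E16 replicate overlapped a flanking value.

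Pdpn, the podoplanin of the type 1 surface, and the scaffold Akap5 were near E14. Pdpn was at 25.6 FPKM, then 28.2 and 26.5, then 77.2 (log2 0.09 to E14, limma adjusted p = 0.604; -1.47 to E17, limma adjusted p = 0.000772). Akap5 was at 22.0, then 21.3 and 21.0, then 47.5 FPKM (log2 -0.05 to E14, limma adjusted p = 0.601; -1.13 to E17, limma adjusted p = 0.00037). Gprc5a, Lmo7 and Col4a3 were near E14 too.

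Outside the alveolar lists, the genes highest at E17 over E14 showed the same range. Near E17 were S100a14 (0.796, then 23.6 and 21.1, then 36.5 FPKM), the chloride channel family member Clic3 (5.25, then 43.9 and 53.0, then 106), the small heat shock protein Cryab (7.97, then 46.7 and 50.7, then 78.9) and the growth factor Fgf1 (1.85, then 16.4 and 13.4, then 24.0). S100a14 had the lowest p of these, with a log2 difference of 3.70 to E14 (SE 0.08, limma adjusted p = 2.69e-05). All 4 were below their E17 level by test, with differences between -0.66 and -1.12.

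Between were Tmem213 (4.75, then 45.9 and 48.6, then 197 FPKM), Ptgs1, which encodes cyclooxygenase 1 (0.858, then 5.50 and 5.69, then 21.3), and the EGF receptor ligand Areg (1.17, then 9.80 and 7.62, then 24.7). Near E14 was Lgals3, which encodes galectin 3 (0.729, then 1.37 and 1.72, then 11.1 FPKM). It did not pass against E14 (limma adjusted p = 0.0545) and was lower than at E17 (log2 -2.25, limma adjusted p = 0.000695).

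The metallothioneins Mt1 and Mt2, metal-binding proteins induced by glucocorticoids and zinc, were near their E17 levels. Mt1 was at 50.7 FPKM at E14, 229 and 267 at E16 and 202 at E17, and Mt2 at 19.2, then 54.2 and 61.5, then 65.0. Neither differed from E17 by the test (limma adjusted p = 0.125 and 0.595). In the mutant libraries Mt1 stood at 427 and 505 FPKM, above every wild-type TRAP library. Per1, a clock gene that glucocorticoids also induce, was near E14: 4.75, then 4.74 and 4.55, then 13.0 FPKM. By position, most genes of the glucocorticoid response list did not stand out so. Of 13 kept, 10 were near both stages (84.8% of all records), 2 near E17 and 1 near E14. By test, however, 7 of the 13 were higher than E14 (24.5% of all records) and 1 lower (25.2%), with a median of 0.42. Against E17, 1 was higher (15.3%) and 3 lower (18.8%), with a median of -0.17.

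Genes of fluid transport were placed unevenly. The lung epithelium secretes fluid before birth and absorbs it at birth through sodium channels and the sodium pump. Atp1b1, a subunit of that pump, was at 25.7 FPKM at E14, 32.1 and 27.3 at E16 and 141 at E17. Scnn1a, a subunit of the sodium channel, was at 1.13, then 1.67 and 1.56, then 5.41 FPKM. Neither passed against E14 (limma adjusted p = 0.137 and 0.0655), and both were lower than E17 (log2 -2.21 and -1.29, limma adjusted p = 0.000138 and 0.000682). Fxyd3, a regulator of the pump, was near E17 instead (20.7, then 59.9 and 56.8, then 72.8 FPKM). Of the 16 kept genes of this list, 3 were near E14 (1.25% of all records), 1 between (1.92%), 1 near E17 (1.46%), 7 near both (84.8%) and 4 split (4.93%). By test 7 were higher than E14 (24.5% of all records) and 4 lower (25.2%). Against E17, 2 were higher (15.3%) and 8 lower (18.8%).

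Among genes lower at E17 than at E14, the fetal growth regulators Hmga2 and Igf2bp1 were near E17. Hmga2, a chromatin protein of early progenitors and a target of the let-7 microRNAs, was at 132 FPKM at E14, 33.2 and 31.8 at E16, and 37.9 at E17. It fell by 1.98 on the log2 scale against E14 (SE 0.07, limma adjusted p = 6.06e-05) and stood at -0.21 to E17 (limma adjusted p = 0.0541). Igf2bp1, an RNA-binding protein of fetal tissues, was at 16.6, then 5.90 and 5.71, then 6.83 FPKM. Both E16 replicates lay slightly under E17 in each case. They were the only 2 near E17 (1.46% of all records) of the 17 kept genes on fetal timing. Of the others, 11 were near both (84.8% of all records), 1 between, 1 below both and 2 split. By test 10 of the 17 were lower than at E14 (25.2% of all records) and 3 higher (24.5%). The imprinted growth RNA H19 was between, higher at E17 than at E14 (143, then 281 and 264, then 413 FPKM).

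Cyclin D1 (Ccnd1), which drives entry into the cell cycle, was near E17 as well: 168, then 88.4 and 83.1, then 77.8 FPKM. The heat shock protein Hsph1 was at 49.4, then 20.3 and 21.1, then 22.9 FPKM, and the ubiquitin-conjugating enzyme Birc6 at 15.9, then 4.80 and 4.42, then 4.32. None of the 3 differed from E17 by the test, with limma adjusted p of 0.137, 0.166 and 0.578.

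Between were Ntn1, the guidance ligand netrin 1 (27.6, then 13.9 and 13.99, then 3.26 FPKM), Crabp2, which carries retinoic acid (31.2, then 12.9 and 14.4, then 2.79), and Sulf2, which edits heparan sulfate outside the cell (51.4, then 18.6 and 18.7, then 9.40). Each passed against both stages. In the mutant libraries Ntn1 stood at 1.25 and 1.88 FPKM, below E17, and Crabp2 at 36.6 and 42.5, above E14.

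Still near E14 were the transcription factor Tbx1 (60.4, then 60.2 and 58.2, then 15.4 FPKM), the collagen Col2a1 (24.4, then 18.1 and 21.8, then 4.83), the receptor Tnfrsf19 (38.0, then 46.5 and 40.6, then 9.34) and the matrix protein Smoc2 (81.4, then 52.9 and 51.2, then 13.5). Tbx1 did not pass against E14 (log2 -0.03, limma adjusted p = 0.792) and was higher than E17 (log2 1.87, SE 0.08, limma adjusted p = 0.000111). Smoc2 was lower than E14 (log2 -0.64 to E14, limma adjusted p = 0.000793).

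Genes of the distal tip, the program in which Sox9 acts, were mostly near both stages, though less often than all records. Of 24 listed, 21 passed the filter. Of these, 15 were near both (84.8% of all records), 3 below both (2.14%), 1 near E17 and 2 split. By test, 16 were lower than at E14 (25.2% of all records) and 2 higher, and 12 were lower than at E17 (18.8%) and 1 higher, with medians of -0.41 and -0.39. With libraries centred on their medians they were -0.397 and -0.314, against -0.00257 and 0.0344 over all records. Under rescaling they were -0.674 and -0.616. That setting also lowered the medians of all records, to -0.258 and -0.245, so a value below 0 there is no separate check. Leaving out replicate 2 of the E16 wild type reduced the lower calls against E14 from 16 to 9, and against E17 from 12 to 8, while without replicate 1 they were 11 and 10.

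Beside Sox9, 2 genes of this list were below both stages. Irx3, an Iroquois homeobox factor, was at 253 FPKM, then 169 and 172, then 284. Dusp6, a phosphatase that damps FGF signalling, was at 23.1, then 14.3 and 13.1, then 27.9. Both were lower than either stage by test (limma adjusted p between 0.000561 and 0.00089).

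Etv5, an ETS factor induced by FGF signalling, was at 343 FPKM, then 237 and 225, then 281, and Wnt7b, a Wnt ligand of the epithelium, at 307, then 171 and 176, then 128. Id2, an early tip marker, did not pass against E14 (336, then 317 and 321, then 447 FPKM, limma adjusted p = 0.478). Nkx2-1, the master factor of lung epithelium, was at 315, then 357 and 366, then 491 FPKM, higher than at E14 and lower than at E17 (log2 0.20 and -0.44). Its difference to E14 was smaller than the shift that a common total gave the median of all records, from -0.0145 to -0.258. Spry2, an inhibitor of FGF signalling, was higher than at E14 (33.8, then 51.1 and 45.7, then 42.0 FPKM; log2 0.50, limma adjusted p = 0.00457).

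Cell cycle genes leaned lower at E16 than at E14, and 27 of 28 were near both stages (84.8% of all records). All 28 passed the filter. By test 20 were lower than E14 (25.2% of all records) and 2 higher (24.5%). Against E17, 13 were lower (18.8%) and 3 higher (15.3%). The medians were -0.43 to E14 and -0.19 to E17. Pcna, the clamp of DNA polymerase, was at 377 FPKM, then 242 and 237, then 305. The helicase subunit Mcm2 was at 81.3, then 46.9 and 43.7, then 49.3, and Rrm2, which supplies deoxynucleotides, at 97.5, then 51.7 and 49.0, then 63.5. E2f1 went the other way (24.2, then 44.0 and 45.3, then 32.7 FPKM; log2 0.86 to E14, limma adjusted p = 0.000455). Mki67, the common marker of dividing cells, did not pass against E14 (7.44, then 7.92 and 7.45, then 11.4 FPKM; limma adjusted p = 0.754).

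**Figure D3:**
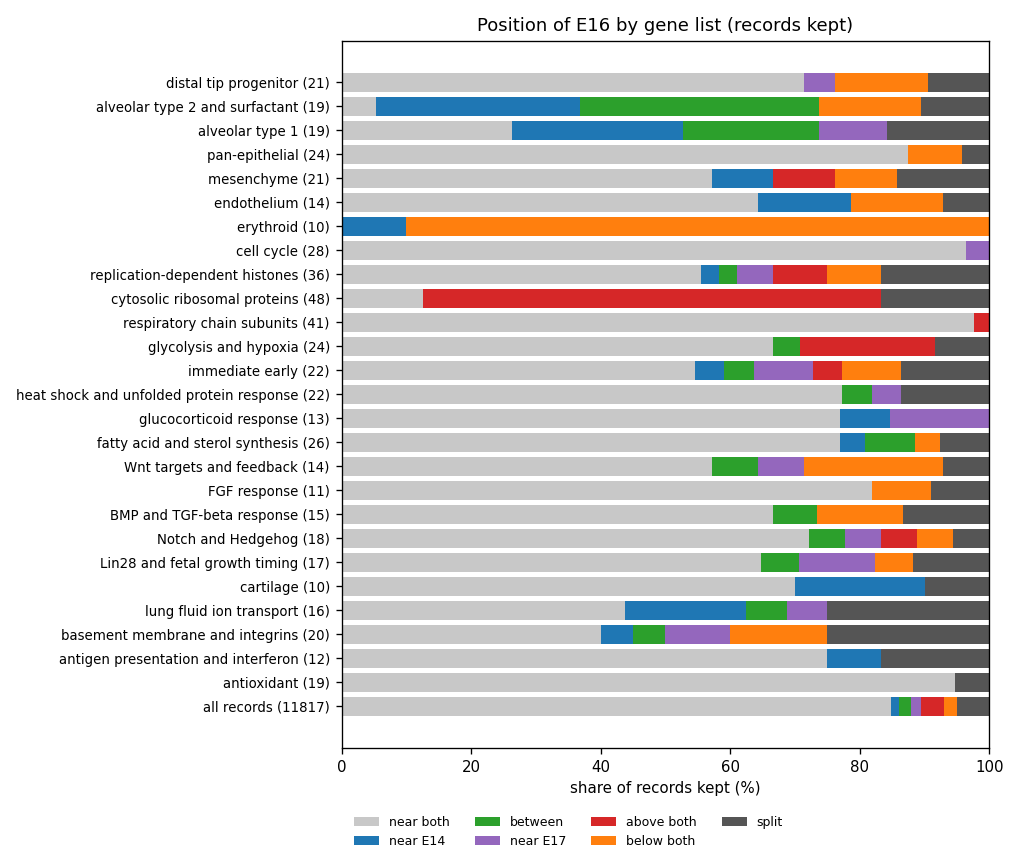
Share of the kept records of each gene list in each position, in percent, for lists with at least 10 kept records, with the number of kept records in brackets and all 11817 records in the lowest bar. Most of the ribosomal bar is above both and most of the erythroid bar below both; the type 2 bar holds 13 of 19 records near E14 or between, and the type 1 bar 11 of 19 near E14, between or near E17.

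Ribosomal protein genes were mostly above both stages. Of 48 cytosolic ribosomal protein genes listed, all passed the filter, and E16 was above both stages for 34 (70.8%, against 3.51% of all records), near both for 6 and split for 8. By test 47 were higher than E14 (24.5% of all records) and 47 higher than E17 (15.3%), with medians of 0.76 and 0.73. They took 22.7% and 23.4% of the FPKM of the E16 replicates, counted over records of at least 200 bases, against 14.8% at E14 and 14.7% at E17. With libraries rescaled to a common total, 19 were above both and 45 were still higher than each stage, with medians of 0.482 and 0.491. A wider set of 100 records named Rpl or Rps, chosen by name alone, was less uniform. Of these, 64 were above both stages, 1 was below both and 11 were split. By test 85 were higher and 5 lower than E14, and 87 higher and 3 lower than E17.

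Rpl41, the shortest of these proteins, stood at 8018 FPKM at E14, 24615 and 25052 at E16, and 7571 at E17. Rps20 stood at 1726, then 4612 and 4848, then 1989.6 FPKM. Rps12 (2186, then 5516 and 5762, then 2439) and Rps7 (1057, then 2456 and 2607, then 1085) were placed alike, with log2 differences to either stage between 1.21 and 1.37. The E16 replicates were separated from both flanking libraries in each gene. Rpl27 showed the lower end, at 1173 FPKM, then 1426 and 1465, then 1087, where E16 was near both stages by position and still higher by test (log2 0.30 and 0.41, limma adjusted p = 0.00656 and 0.00344). Its difference to E14 was close in size to the shift of the median of all records under a common total.

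The other libraries of the series put this block in context. Mutant E16 libraries held 21.4% and 21.3% of their FPKM in these genes, and whole lung 18.2% at E14 and 19.9% at E17. Rpl41 was at 21080.0 and 23647 FPKM in the mutant libraries and at 7903 and 9022 in whole lung. The high level was thus measured in all 4 E16 libraries, of either genotype, and all 4 belong to 1 library set. Whether stage or library set goes with it cannot be told apart.

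Messenger RNAs of ribosomal proteins begin with a run of pyrimidines, the 5′ terminal oligopyrimidine tract, through which their translation is controlled as a group. The starts of 6 genes above both stages are shown. Rpl41, Rps7 and Rps12 were chosen for the values above. Rpl28 (3309.5, then 6192 and 6363, then 3646 FPKM), Rpl35 (2753, then 4143 and 4351, then 2653) and Rpl38 (2850.5, then 4435 and 4618, then 2915) were chosen because their windows hold CTTTC, so the words are more frequent here than in the list. Each is the stretch from 10 bases before to 20 bases from the start that RefSeq annotates on GRCm38.p6 (mm10), 5′ to 3′ on the strand of the gene, with the words CTTTC and CTTTT in capitals.
Rpl41 (chr10:128549149-128549178, minus strand): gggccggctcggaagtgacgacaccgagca
Rps7 (chr12:28635934-28635963, minus strand): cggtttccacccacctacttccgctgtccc
Rps12 (chr10:23787190-23787219, minus strand): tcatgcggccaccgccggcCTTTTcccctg
Rpl28 (chr7:4792955-4792984, plus strand): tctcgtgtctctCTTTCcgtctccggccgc
Rpl35 (chr2:39005112-39005141, minus strand): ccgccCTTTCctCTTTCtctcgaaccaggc
Rpl38 (chr11:114668570-114668599, plus strand): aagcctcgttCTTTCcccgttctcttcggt

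Either word was in 10 of 41 windows of ribosomal genes (24.4%) and in 2 of 41 (4.88%) on the other strand. Among all 32851 windows of this length the shares were 6.63% and 6.22%. Only 37 of the 48 listed genes (77.1%) had a window, under the 80% needed, so the comparison is void and the words are a description of the sequences shown. Rpl41 and Rps7 have neither word in this window and were among the highest above both stages.

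Other mRNAs known for such a tract were read after the ribosomal values had been seen. Of 17, 9 were above both stages (52.9%, against 3.51% of all records) and 8 near both (84.8% of all records). The medians were 0.61 to E14 and 0.65 to E17. Tpt1, which encodes a translationally controlled tumour protein, was at 1773 FPKM, then 4276 and 4344, then 1861. The elongation factor Eef1b2 was at 339, then 593 and 641, then 270.4 FPKM. Eef1d and the nucleolar protein Npm1 were lower than E14 instead (log2 -0.58 and -0.44, limma adjusted p = 0.00127 and 0.00238).

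Host genes of small nucleolar RNAs, whose spliced transcripts also start with such a tract in several cases, were read in the same way. Of 11 records named Snhg, 6 were above both stages (54.5%, against 3.51% of all records). Snhg6 was at 47.9 FPKM, then 177 and 171, then 63.7, and Snhg1 at 96.9, then 226 and 235, then 112. Gas5, another host gene, was at 3.58, then 9.04 and 9.31, then 4.35 FPKM. For proteins of the mitochondrial ribosome the share above both was close to that of all records. Of 77 records named Mrpl or Mrps, 2 were above both (2.60%) and 74 near both (84.8% of all records). Of 41 respiratory chain subunits, 40 were near both and 1, Cox8a, above both.

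**Figure D4:**
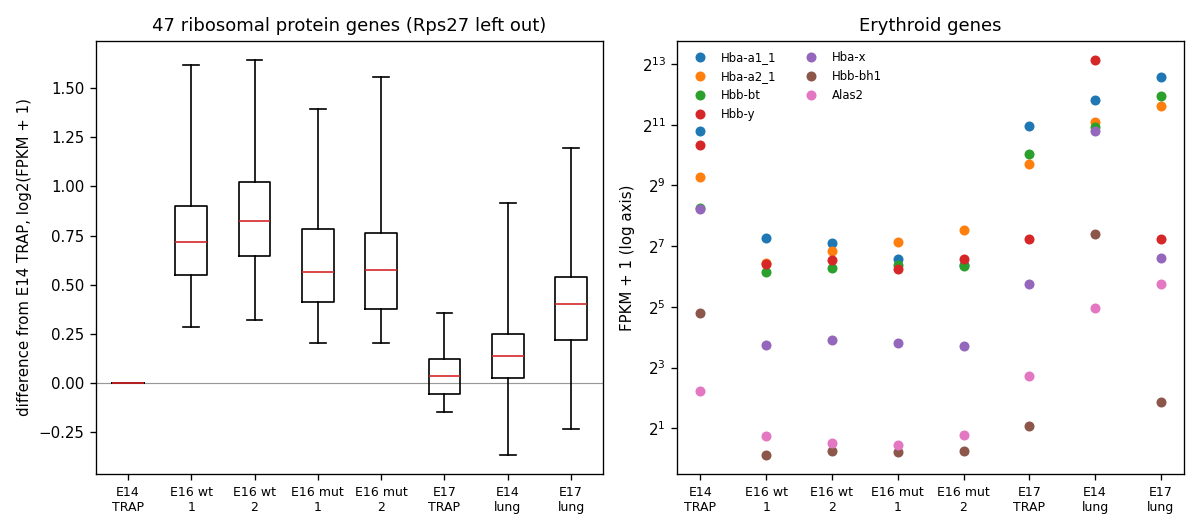
Left: log2(FPKM + 1) minus the E14 TRAP value for 47 ribosomal protein genes in each library, with the median in red, the box at the quartiles and whiskers to the extremes; Rps27 is left out because its fragments are shared with an overlapping record. Right: FPKM + 1 of 7 erythroid records on a log axis in the same libraries. All 4 E16 libraries stand apart from E14 and E17 TRAP, upward on the left and downward on the right.

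Records above both stages lay in short loci. Their median span was 8205 bases, with 39.3% under 5000, against 21215 bases and 14.4% over all records and 23609 bases and 22.1% for records below both. Across all records the Pearson r of log2 span with the difference of E16 from the mean of E14 and E17 was -0.146, and -0.0667 for the mutant libraries. This is a description across genes that share libraries and lengths.

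Several genes of other functions were far above both stages. The selenoprotein gene Sepw1 was at 377 FPKM, then 1291 and 1409, then 445. Bola3, which helps assemble iron-sulfur clusters in mitochondria, was at 50.0, then 206 and 202, then 85.6. The myosin light chain Myl6b (9.10, then 33.1 and 33.6, then 12.1 FPKM) and Cyb5d1 (12.6, then 46.97 and 42.4, then 10.7) followed. Each was higher than either stage with limma adjusted p between 6.06e-05 and 0.000226, and each was above both stages in the mutant libraries too.

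Genes of glycolysis and the response to low oxygen formed a single list. Of 24 kept genes, 16 were near both stages (84.8% of all records) and 5 above both (3.51%). By test 18 were higher than E14 (24.5% of all records) and 13 higher than E17 (15.3%), with medians of 0.45 and 0.27. Another 4 were lower than E14 (25.2% of all records) and 4 lower than E17 (18.8%). Under rescaling 11 were higher and 4 lower than E14, 8 were higher and 8 lower than E17, and the medians were 0.171 and 0.0333, so that the lean against E17 was gone. Bnip3, which targets mitochondria for removal, was at 23.6 FPKM, then 73.0 and 74.5, then 43.2. Pdk1, which keeps pyruvate out of mitochondria, was at 17.9, then 46.3 and 45.6, then 24.5. The lactate exporter Slc16a3 was at 26.7, then 58.6 and 67.6, then 21.5 FPKM, and in the mutant libraries at 30.2 and 25.3, near both stages. Egln1 and Pgk1 were the other 2. The abundant glycolytic enzymes Gapdh (2975, then 2316 and 2447, then 2234 FPKM) and Pkm (1009, then 773 and 827, then 616) were lower than at E14 by test.

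Airway genes had no common direction. Of 8 kept secretory genes, 2 were above both stages (3.51% of all records), 1 below both (2.14%) and 5 near both (84.8%). By test 3 of them were higher (24.5% of all records) and 4 lower (25.2%) than E14. Of 8 kept multiciliated genes, 1 was above both, 1 below both, 4 near both and 2 split. The genes below both were Scgb3a1 and Tubb4b. Those above both were Sox2 and Aldh1a1 of the secretory list and Ccno of the multiciliated list. With libraries rescaled to a common total, Sox2 and Aldh1a1 were split. Sox2, the factor of the proximal airway, was at 12.8 FPKM, then 26.4 and 21.0, then 4.405 (log2 0.83 to E14, limma adjusted p = 0.00731; 2.18 to E17, limma adjusted p = 0.000497). Ccno, needed to multiply centrioles in ciliated cells, was at 0.750, then 7.18 and 5.28, then 1.55. In the mutant libraries Sox2 stood at 58.6 and 72.1 FPKM and Ccno at 21.7 and 19.2, above the wild type. Foxj1, the master factor of ciliated cells, was near both stages (2.25, then 4.73 and 3.37, then 4.601 FPKM), and so was the club cell protein Scgb1a1 (399.8, then 266 and 290.0, then 239).

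The named record furthest above both was Camk2b, a kinase subunit best known from neurons. It was at 0.187 FPKM at E14, 10.3 and 10.04 at E16 and 0.239 at E17. The mutant libraries held 0.934 and 12.7 FPKM, so that its SE was large and the test just passed (log2 3.23, SE 0.98, limma adjusted p = 0.0341 against E14; 3.17, limma adjusted p = 0.0493 against E17).

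**Figure D5:**
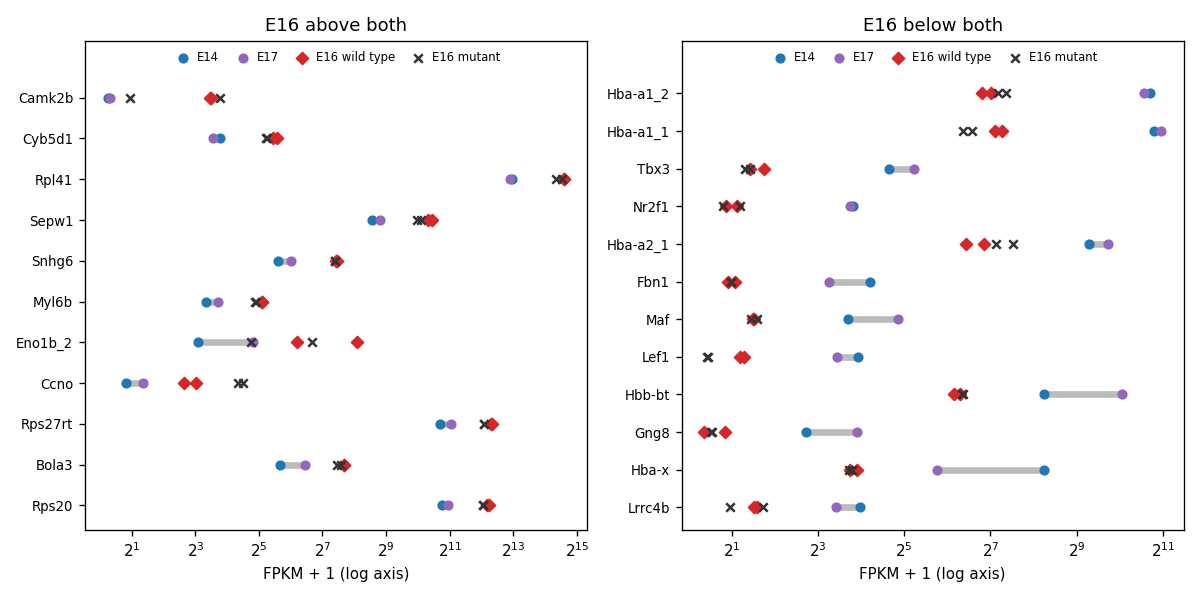
FPKM + 1 on a log axis for 11 of the records named as far above both stages (left) and the 12 named as furthest below both (right). Grey bars join E14 and E17, red diamonds are the E16 wild-type replicates and crosses the E16 mutant libraries; the diamonds lie outside the grey bar in every row.

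Hemoglobin records were far below both stages. Of 15 erythroid genes listed, 13 were in the files, and 8 of these, in 10 records, passed the filter. E16 was below both stages for 9 records (2.14% of all records) and near E14 for 1, with medians of -3.11 to E14 and -2.58 to E17. The adult alpha globin record Hba-a1_1, on chromosome 11 from 32283672 to 32284486, was at 1758 FPKM, then 153 and 136, then 1981. The mutant libraries held 93.9 and 81.6 FPKM of it, and whole lung 3589.8 and 6062. Alas2, the first enzyme of heme synthesis in red cells, was at 3.71, then 0.699 and 0.417, then 5.62 FPKM.

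Embryonic and adult globins differed in how the flanking stages were ordered. The embryonic genes Hba-x (300.2, then 12.4 and 13.97, then 52.9 FPKM) and Hbb-y (1294, then 84.6 and 91.9, then 150.2) were higher at E14 than at E17, and the adult Hbb-bt (302, then 69.7 and 77.4, then 1052) was higher at E17. The E16 replicates were lower than each of these values. The summed level of the list was 6297 FPKM at E14, 615 and 659 at E16, 6085 at E17, 614 and 705 in the mutant and 23212 and 19471 in whole lung. Globin records have near-identical copies, so the level of a single copy is uncertain. Hbb-bs was listed at or under 0.00621 FPKM at E14 and E16 and at 80.6 at E17.

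Tbx3, Nr2f1 and Fbn1 were among the named records furthest below both stages. The transcription factor Tbx3 was at 24.1 FPKM, then 1.68 and 2.35, then 36.7, with 25.5 and 24.7 in whole lung. The nuclear receptor Nr2f1 was at 13.0, then 0.827 and 1.17, then 12.4 (whole lung 15.3 and 8.96), and the fibrillin gene Fbn1 at 17.6, then 1.11 and 0.880, then 8.56 (whole lung 8.89 and 9.87). For all 3 the E16 replicates were well under each flanking value, by -2.26 to -3.65 on the log2 scale (limma adjusted p between 6.06e-05 and 0.000436).

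Maf (11.99, then 1.84 and 1.88, then 28.2 FPKM; whole lung 24.5 and 31.1) and Lrrc4b (14.8, then 1.88 and 1.99, then 9.64; whole lung 13.7 and 10.1) were placed alike. Tbx2 and Tbx5 were below both as well, Tbx2 at 36.3 FPKM, then 14.5 and 17.4, then 55.0. Tbx4 was not (6.63, then 4.82 and 7.05, then 7.09 FPKM). Of the 3 Tshz records all were below both, as were 2 of 3 Meis records and both Prrx records, families read after their values had been seen. The share below both over all records was 2.14%.

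Markers of the other lung cells did not all go the same way. Over all records 2.14% were below both stages and 3.51% above both. Of the 21 kept mesenchymal genes, 2 were below both, Wnt2 (10.6, then 2.93 and 4.29, then 8.40 FPKM) and Tbx5, and 2 were above both, the collagens Col1a1 (18.7, then 30.6 and 41.6, then 12.3) and Col3a1 (9.48, then 25.2 and 34.0, then 10.998). Col1a1 passed against E17 alone (limma adjusted p = 0.0348) and Col3a1 against E14 alone (limma adjusted p = 0.028). The median of the list to E14 was -0.156, and 0.0784 without replicate 1 of the E16 wild type. Of the 14 kept endothelial genes, Eng (6.43, then 3.14 and 4.12, then 12.2 FPKM) and Ramp2 (19.6, then 8.67 and 13.1, then 42.7) were below both, whereas the vascular cadherin Cdh5 did not pass against either stage (2.13, then 2.38 and 3.38, then 2.72 FPKM). The part of other cell types in the records below both was not tested.

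Of 14 kept Wnt target and feedback genes, 8 were near both stages (84.8% of all records) and 3 below both (2.14%). Lef1, a mediator and target of Wnt signalling, was at 14.3 FPKM, then 1.28 and 1.42, then 9.89 (log2 -2.70 to E14, SE 0.11, limma adjusted p = 8.22e-05; -2.21 to E17, limma adjusted p = 0.000205). Nkd1, a feedback inhibitor, was at 19.3, then 11.3 and 12.5, then 18.9 FPKM, lower than either stage by test. The Wnt-induced factor Sp5 was at 31.8, then 21.3 and 19.1, then 30.9 FPKM and passed against neither (limma adjusted p = 0.0907 and 0.132). By test 10 of the 14 were lower than E14 (25.2% of all records) and none higher, and 5 lower than E17 (18.8%) and 1 higher. The median to E17 was -0.0214 and turned to 0.0498 when libraries were centred on their medians and to 0.0276 without replicate 1 of the E16 wild type.

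Of 15 kept genes of the BMP and TGF-beta response, 10 were near both stages (84.8% of all records), 2 below both (2.14%), 1 between and 2 split. By test 3 were higher (24.5% of all records) and 6 lower (25.2%) than E14. Against E17, 1 was higher (15.3%) and 8 lower (18.8%), with medians of -0.07 to E14 and -0.46 to E17. The 2 below both were the feedback inhibitors Smad6 and Smad7. Smad6 was at 39.9 FPKM, then 20.7 and 23.3, then 50.7, and Smad7 at 15.1, then 6.74 and 7.25, then 30.3. Id1, a direct BMP target, was between instead (33.4, then 61.0 and 71.9, then 147 FPKM). The basement membrane collagens Col4a1 (67.8, then 44.3 and 43.9, then 77.8 FPKM) and Col4a2 (38.3, then 23.3 and 23.1, then 49.7), which share a promoter, were below both. So was the junction protein Cldn7 (205, then 122 and 121, then 278 FPKM), while 21 of the 24 pan-epithelial genes were near both.

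Jun and Jund, partners in the AP-1 transcription factor, went in opposite directions. Jun was at 160.2 FPKM, then 62.7 and 65.1, then 160.3, and Jund at 168, then 309 and 322, then 155. Both passed against both stages, Jun with a log2 difference of -1.31 to either and Jund with 0.90 and 1.02. Myc was below both with Jun (9.03, then 3.01 and 3.63, then 8.89 FPKM).

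Several extreme records share their locus with another record, and their levels should be read together. Eif3j1 was at 0.115 FPKM at E14 and at 47.1 and 49.2 at E16, and was near E17, while the overlapping record Eif3j2 was at 55.7 and then at 2.80 and 0.282. Their sum was 55.8 FPKM at E14, 49.9 and 49.5 at E16 and 49.6 at E17. Rps27 was split (96.2, then 9.41 and 346, then 60.6 FPKM), but its sum with the overlapping Rps27rt was 1773, then 5113 and 5465, then 2156, above both stages like the other ribosomal genes. The 2 records of Eno1b overlap Eno1, and the sum of the 3 was 1134 FPKM, then 932 and 1070, then 694.6, within the range of the stages, although Eno1b_2 alone was above both.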

How the data were processed

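Every library came as its own table of 24487 records, in which the authors give FPKM with a lower and an upper bound (per the file headers). Per the submitters' processing notes, the tools were TopHat2 2.0.14, Bowtie2 2.2.3, Cufflinks 2.2.1 and Cuffnorm on mm10. How library totals were set and whether counting used strand are not given in the sources used here, so near-identical or overlapping genes are uncertain. The tables were joined on symbol, start site and locus. E16 wild type was compared with E14 and with E17 on log2(FPKM + 1) by limma 3.58.1 (R 4.3.3), fitted to the 6 TRAP libraries in 4 groups with trended variance, with Benjamini-Hochberg adjustment over the 11817 kept records and a threshold of 0.05. The scripts were tested on simulated data. The members and all 36 gene lists were chosen with earlier results of these data known.

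The named genes were Sox9, the 12 records furthest above and below both stages, the 5 with the largest E17 to E14 difference per position and direction, and up to 4 per list, all with at least 5 FPKM in the highest library apart from list members. Clone names, pseudogenes and small RNAs were passed over. Other list members and families were named after their values were seen. A record that the rule named is not reported here. Python 3.11.15, pandas 2.3.3 and numpy 2.4.6 made the tables and matplotlib 3.10.9 the figures. Alternatives changed the pseudocount, filter, scaling, margin, fitted libraries and replicate block, or left out a replicate.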

Additional observations from a re-analysis of the deposited data

How the results depend on the processing

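No named gene past its threshold changed sign; without replicate 2 the sign turned for 3 that had not passed, to 0.0272 (Ddx3y, E16 minus E17), 0.46 (Eif2s3y, E16 minus E17) and 0.0549 (Uty, E16 minus E17). The balance of higher and lower records did turn. With libraries rescaled to a common total, 1628 records were higher and 5635 lower than E14, 919 higher and 5315 lower than E17, 160 above both and 775 below both, and the median way was 37.9% for records higher at E17 and 65.3% for those lower. Centring on medians gave 3016 higher and 2906 lower than E14, 2434 and 1642 than E17, and ways of 54.6% and 47.9%. Without a filter, 1111 records were higher than E17 and the way of records higher at E17 was 50.7%. A minimum of 5 FPKM left 87 near E14 and 145 between, with a way of 57.1%. A pseudocount of 0.1 put 297 near E17, with ways of 59.0% and 42.5%. A margin of 0.25 gave 1099 records above both and 914 records below both, and a margin of 1 gave 49 and 61. Leaving out 1 E16 wild-type replicate left 1117 to 1143 higher and 1328 to 1336 lower than E17, with ways of 52.8% to 52.9% and 47.4% to 51.4%. With the replicate number as a block the calls were 2872 higher and 2909 lower than E14, and 1806 and 2127 than E17. The numbers did not pair the samples, since same-numbered deviations correlated at -0.00824. With only the 4 wild-type libraries in the fit, 3130 were higher and 3226 lower than E14. Of 179 results for named genes, 162 passed, and 45 of these missed the threshold under at least 1 setting, 40 of them without a filter. Causes of these shifts were not tested. Each flanking stage has 1 library, E14 is the shallowest, and low records are the least certain.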
